A study of Homo sapiens with 6 samples.

Results

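The MYC-MAX-MXD network was followed in HUDEP-2 cells, an immortalised line of human erythroid progenitors with a mainly adult globin pattern, after depletion of menin. Its 10 genes were taken by symbol from the deposited gene tables, out of 62754 genes in all: MYC, MYCN, MAX, the antagonist genes MXD1, MXD3, MXD4, MXI1 and MNT, the large MAX partner MGA, and MLX. The 3 libraries of the MEN1 shRNA group came from cells given a lentiviral hairpin against MEN1, the menin gene (genotype label: MEN1 knockdown). The 3 libraries of the control shRNA group came from cells given a hairpin with no target (genotype label: WT). Both groups shared medium with doxycycline (1 µg/ml), dexamethasone (1e-06 M), SCF (50 ng/ml) and EPO (3 units/ml), and both were under puromycin at 2 µg/ml for 48 h from 24 h after infection until harvest at 72 h. A single MEN1 hairpin and a single cell line were used, so that an effect of menin loss and an off-target effect of the hairpin cannot be told apart. The titles call the libraries biological replicates, and the labels do not say whether each had its own transduction.

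MYC is a basic helix-loop-helix leucine zipper protein that binds DNA only as a dimer with MAX, at E-boxes of the sequence CACGTG, and activates genes for ribosome production, metabolism and cell division. MXD1, MXD3, MXD4, MXI1, MNT and MGA also pair with MAX, bind the same sites and repress, the MXD proteins and MNT through the SIN3-HDAC corepressor. MLX pairs with MXD1, MXD4 and MNT and with the glucose-sensing factor MondoA, so that it ties the network to metabolism. In erythroid cells MYC is high in dividing progenitors and falls during terminal maturation.

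MEN1 itself had 6.29, 6.44 and 6.88 TPM in MEN1 shRNA replicates 1, 2 and 3 and 41.2, 39.6 and 37.1 TPM in control replicates 1, 2 and 3, so it was low in every library labelled as knockdown. TPM is a gene's share of the library per unit of its length, scaled to a sum of 1000000. The libraries held 5.56 to 10.8 gigabases of aligned sequence, inferred from the ratio of coverage to FPKM, and 13865 to 14361 genes at 1 TPM or more. All 10 erythroid markers were expressed in both groups, and their summed level was 55447 to 61495 TPM in the controls and 95907 to 107883 TPM after menin depletion. Most of this sum was HBB, HBA1 and HBA2, with means of 50171, 23556 and 23236 TPM after menin depletion. Of the markers of other cells, 2 of 7 myeloid, 1 of 6 megakaryocyte, 1 of 5 lymphoid and 0 of 4 stromal genes passed the filter, and PF4, PPBP, MS4A1 and DCN were listed at 0 in all 6 libraries. The summed TPM of these lists in the MEN1 shRNA and control libraries was 17.8 to 24.6 and 12.6 to 14.8 for myeloid, 16.6 to 21.3 and 31.8 to 36.7 for megakaryocyte, 3.97 to 5.71 and 0.874 to 1.23 for lymphoid, and 0.0823 to 0.146 and 0 to 4.44 for stromal genes. These sums rest on few genes. Of the 2 myeloid genes that passed the filter, mean CD68 rose from 11.6 TPM in the controls to 20.4 TPM with the MEN1 shRNA. The other, LYZ, fell from 1.48 to 0.198 TPM. ITGA2B, the megakaryocyte gene that passed, fell from 33.8 to 18.6 TPM, and CD3D, the lymphoid one, rose from 0.397 to 4.40 TPM. The part of cells with these markers in the results was not tested. MEN1 shRNA replicate 1 was the library of its group most like the controls, its mean correlation across genes with the control libraries being 0.953, where replicates 2 and 3 had 0.936 and 0.934.

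Of the 10 network genes, 9 passed the filter of 1 TPM or more in at least 3 libraries, and 5 of these 9 passed an adjusted p of 0.05 in limma. MYC, MXD1 and MGA fell and MXD3 and MXI1 rose. This share is near that of all genes: 53.6% of 14294 genes tested passed in the same fit, 22.1% higher and 31.5% lower with the MEN1 shRNA. The description below therefore rests on the members' own values. With FPKM, median-of-ratios scaling, quantile normalization, rescaling without globin and mitochondrial genes, or a mean of 5 TPM or more, MAX and MNT passed too, which made 7 members, 4 higher and 3 lower. All genes tested passed at 52.8% to 53.7% in the first 4 of these settings and at 62.3% with the mean TPM filter. A change of at least 2-fold on the log2(TPM + 1) scale, met by 11.9% of genes tested (6.9% lower and 4.96% higher), was seen for MYC, lower, and MXD3, higher. TPM values of the 2 groups did not overlap in 7 of the 9 members, against 61.8% of genes tested. In bulk RNA, fewer cells with a transcript and less of it per cell cannot be told apart.

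**Figure D1:**
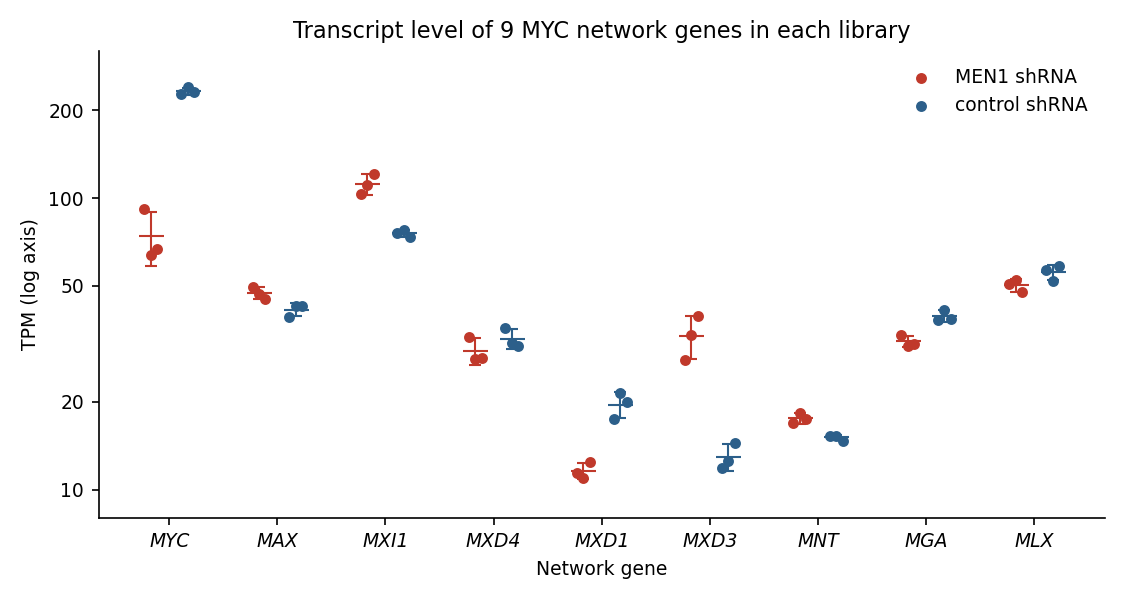
TPM on a log axis of the 9 network genes that passed the filter, in each MEN1 shRNA and control shRNA library (points), with the group mean and SD (bars, n = 3 per group). MYC drops from a mean of 232 to 74.1 TPM, MXD1 and MGA also lie lower, and MXI1 and MXD3 lie higher with the MEN1 shRNA.

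MYC, the activator at the centre of the network (ENSG00000136997, chromosome 8, 127735434 to 127742951, plus strand, hg38), had 91.9, 63.7 and 66.8 TPM in MEN1 shRNA replicates 1, 2 and 3 and 227, 240 and 231 TPM in control replicates 1, 2 and 3. Every MEN1 shRNA library lay far below every control library, and replicate 1 was the highest of its group. Mean MYC dropped from 232 ± 6.52 to 74.1 ± 15.4 TPM (here and below mean ± SD, n = 3), or to 31.9% of the control. Its log2 fold change of -1.65 (SE 0.13) had an adjusted p of 6.4e-05 in limma, and 1.37% of all genes tested had a lower value. The deposited depth over MYC was 218 to 344 reads per base in the controls and 56.3 to 107 in the hairpin libraries. These depths are not scaled for library size, which was 7 to 10.8 gigabases in the controls and 5.56 to 7.98 in the hairpin libraries. Scaled coverage gave a log2 fold change of -1.55. Of the 10 erythroid markers 7 rose, against 22.1% of all genes tested. KLF1, GATA1 and EPOR, named after their values were seen, did not pass, with log2 fold changes of -0.05, 0.06 and 0.02. The part of the erythroid markers in the result for MYC was not tested. Leaving out 1 library at a time gave log2 fold changes of -1.82 to -1.56, the lowest without MEN1 shRNA replicate 1. CASC11, whose row overlaps MYC on the opposite strand, stayed at or below 0.249 TPM. PVT1, the long noncoding RNA gene downstream of MYC, had a mean of 163 ± 17.5 TPM with the MEN1 shRNA and 177 ± 26.3 TPM in the controls, and its groups overlapped (log2 fold change -0.11, 95% interval -0.40 to 0.17, adjusted p 0.463 in limma). CCDC26, farther along the same chromosome arm, was at or below 0.0312 TPM.

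The other MYC paralogs were near or at 0. MYCN (chromosome 2, 15940550 to 15947007, plus strand), the paralog best known from neuroblastoma and early development, was listed at 0 TPM in all 6 libraries and was not tested, as was its antisense neighbour MYCNOS. MYCL, the third paralog and not a member of the list, stayed at or below 0.259 TPM.

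MAX, the dimer partner shared by MYC and the MXD proteins (chromosome 14, 65006174 to 65102695, minus strand), had 49.5, 46.8 and 45.2 TPM with the MEN1 shRNA and 39.0, 42.6 and 42.7 TPM in the controls. The lowest MEN1 shRNA library was above the highest control, by a small margin. The means were 47.2 ± 2.16 and 41.4 ± 2.12 TPM, with a log2 fold change of 0.18 (95% interval 0.02 to 0.34) that did not pass the threshold (adjusted p 0.0556 in limma). It passed in 5 other settings, with an adjusted p of 0.01 under median-of-ratios scaling, so the call depends on the scaling. The ratio of MYC to MAX TPM was 5.62 ± 0.21 in the controls and 1.57 ± 0.26 with the MEN1 shRNA. From coverage it was 31.5 ± 1.90 and 9.41 ± 1.81, so that its level depends on the unit and it was lower with the MEN1 shRNA in both.

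The antagonists moved in different directions. MXD3, an antagonist found mainly in dividing cells in S phase (chromosome 5, 177301461 to 177312757, minus strand), had 27.9, 33.9 and 39.3 TPM in MEN1 shRNA replicates 1, 2 and 3 and 11.9, 12.5 and 14.5 TPM in the controls. By TPM it was the lowest tested member in the controls and stood above MGA and MXD4 in mean level with the MEN1 shRNA. The means were 33.7 ± 5.72 and 13.0 ± 1.38 TPM, a ratio of 2.60 (log2 fold change 1.30, SE 0.134, adjusted p 1.8e-04 in limma), and 2.81% of genes tested had a higher log2 fold change. Its row overlaps RAB24 on the same strand and PRELID1 on the opposite strand. RAB24 had 22 ± 1.5 and 19.1 ± 2.65 TPM and did not pass (adjusted p 0.169 in limma). PRELID1 fell from 281 ± 8.16 to 170 ± 4.69 TPM, the direction opposite to that of MXD3.

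MXI1, also called MXD2, is an antagonist that accumulates in differentiating cells (chromosome 10, 110207605 to 110287365, plus strand). It had 103, 111 and 121 TPM with the MEN1 shRNA and 75.6, 77.9 and 73.6 TPM in the controls, with no overlap. The means were 112 ± 8.90 and 75.7 ± 2.12 TPM, a ratio of 1.48 (log2 fold change 0.55, SE 0.0709, adjusted p 4.7e-04 in limma). By TPM, MXI1 was the second of the members in the controls and the first with the MEN1 shRNA, and in both groups its range did not meet that of its neighbour in the order. By the deposited coverage it ranked 7 in both groups, so its place depends on the unit. The depth, not scaled for library size, was 10.5 to 21.7 reads per base in the controls and 15.7 to 18.6 with the hairpin. The call was lost when gene-level coverage replaced TPM (log2 fold change 0.36, adjusted p 0.089 in limma), a setting chosen after the data were seen. The cause was not tested.

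MXD1, the antagonist first described as MAD and linked to terminal myeloid differentiation (chromosome 2, 69897688 to 69942945, plus strand), went the other way. The controls had 17.4, 21.4 and 19.9 TPM of MXD1 and the MEN1 shRNA libraries 11.4, 11 and 12.4 TPM, again with no overlap. The means were 11.6 ± 0.696 and 19.6 ± 2.04 TPM, a ratio of 59.3% (log2 fold change -0.70, adjusted p 7.7e-04 in limma, SE 0.0998), and by TPM MXD1 was the lowest of the tested members with the MEN1 shRNA. Its row overlaps SNRNP27, a splicing factor gene, over 7888 bases on the same strand, and SNRNP27 rose from 41.2 ± 0.529 to 60.7 ± 4.40 TPM. MXD4, the antagonist most widely expressed in resting and differentiated cells (chromosome 4, 2247432 to 2262109, minus strand), had 33.5, 28.1 and 28.2 TPM with the MEN1 shRNA and 35.9, 31.9 and 31.0 TPM in the controls. The groups overlapped, and its log2 fold change of -0.14 did not pass (95% interval -0.36 to 0.09, adjusted p 0.272 in limma).

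MNT, an antagonist expressed in nearly all cells and the usual counterweight to MYC in proliferating ones (chromosome 17, 2384073 to 2401104, minus strand), had 16.9, 18.3 and 17.4 TPM with the MEN1 shRNA and 15.3, 15.3 and 14.7 TPM in the controls. The groups did not overlap, but the difference was small: 17.5 ± 0.729 against 15.1 ± 0.329 TPM, a log2 fold change of 0.20 (95% interval 0.02 to 0.37, adjusted p 0.0556 in limma). It passed in 8 of 17 alternative settings, so that its call, like that of MAX, sits at the threshold. MGA, a scaffold that joins MAX to a non-canonical Polycomb complex (chromosome 15, 41621134 to 41773081, plus strand), had 33.9, 31.2 and 31.6 TPM with the MEN1 shRNA and 38.2, 41.4 and 38.6 TPM in the controls. The groups did not overlap. MGA fell to 81.8% of its control mean, 32.2 ± 1.48 against 39.4 ± 1.78 TPM (adjusted p 0.0102 in limma, log2 fold change -0.28), a step smaller than those of MYC, MXD1, MXD3 and MXI1. MLX (chromosome 17, 42567072 to 42573239, plus strand) had 50.6, 52.4 and 47.6 TPM with the MEN1 shRNA and 56.5, 52.1 and 58.3 TPM in the controls, with overlapping groups (log2 fold change -0.14, 95% interval -0.31 to 0.02, adjusted p 0.122 in limma). PSMC3IP, which overlaps the end of MLX on the opposite strand, rose from 28.0 ± 2.15 to 40.5 ± 3.63 TPM (adjusted p 0.00207 in limma). Whether the quantification kept the strands apart is not given in the sources used here.

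**Figure D2:**
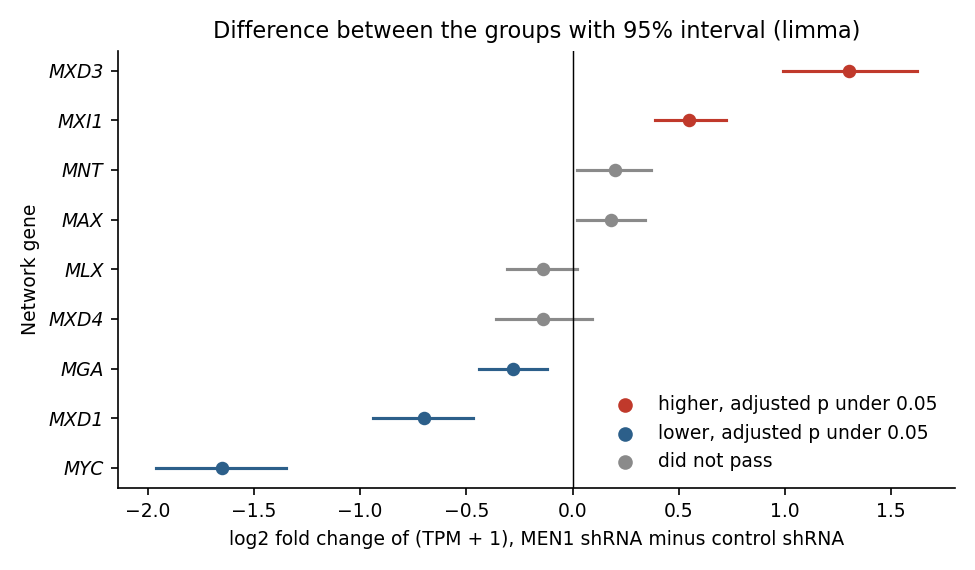
Log2 fold change of TPM + 1 between the MEN1 shRNA and control shRNA groups for the 9 tested network genes, with the 95% interval from limma. MYC at -1.65 and MXD3 at 1.30 mark the ends, and the intervals of MXD4 and MLX include 0.

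In the controls the order of mean TPM was MYC, MXI1, MLX, MAX, MGA, MXD4, MXD1, MNT and MXD3, and the ranges of neighbours overlapped in 1 place, between MAX and MGA. With the MEN1 shRNA the order was MXI1, MYC, MLX, MAX, MXD3, MGA, MXD4, MNT and MXD1. There MLX overlapped MAX, MXD3 overlapped MGA and MGA overlapped MXD4, so those neighbours did not differ beyond their spread. Coverage, which is also per length, gave another order: MYC, MLX, MXD4, MXD1, MGA, MNT, MXI1, MXD3 and MAX in the controls and MLX, MYC, MXD4, MXD3, MXD1, MNT, MXI1, MGA and MAX with the MEN1 shRNA. MYC led the controls in both units, while the places of MXI1 and MAX depend on the unit. Coverage did not follow TPM by the same factor in every gene. In MEN1 shRNA replicate 2, MYC had 74.9 reads per base at 63.7 TPM and MXI1 18.6 at 111 TPM. An order of genes by coverage is therefore not on the scale of the TPM order.

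The balance of MYC and antagonist transcripts differed between the groups. The 5 antagonist genes MXD1, MXD3, MXD4, MXI1 and MNT summed to 193, 203 and 218 TPM in MEN1 shRNA replicates 1, 2 and 3 and to 156, 159 and 154 TPM in the controls. As a share of their sum with MYC and MYCN, this was 67.7%, 76.1% and 76.5% against 40.7%, 39.9% and 40.0%. The antagonist share averaged 73.5% ± 4.97 with the hairpin and 40.2% ± 0.463 without it, 33.2 percentage points apart. This is a description with no test, because it is a score over the members. Antagonist TPM per TPM of MYC was 2.85 ± 0.651 with the MEN1 shRNA and 0.673 ± 0.013 in the controls, so that MYC outweighed the antagonists in every control library and the antagonists outweighed MYC in every MEN1 shRNA library. From coverage this ratio was 1.47 to 2.2 with the hairpin and 0.637 to 0.655 in the controls, again on opposite sides of 1. MEN1 shRNA replicate 1 had the lowest share of its group, and without it the difference was 36.1 points. The mean antagonist sum was 48.2 TPM higher with the MEN1 shRNA, a smaller difference than that of MYC. MXI1, the largest part of this sum in TPM, lost its call with coverage. A rise of the antagonist sum was therefore seen in TPM and is not shown for coverage. The total of MYC and antagonists was lower with the MEN1 shRNA, at 279 ± 10.6 against 389 ± 8.61 TPM.

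**Figure D3:**
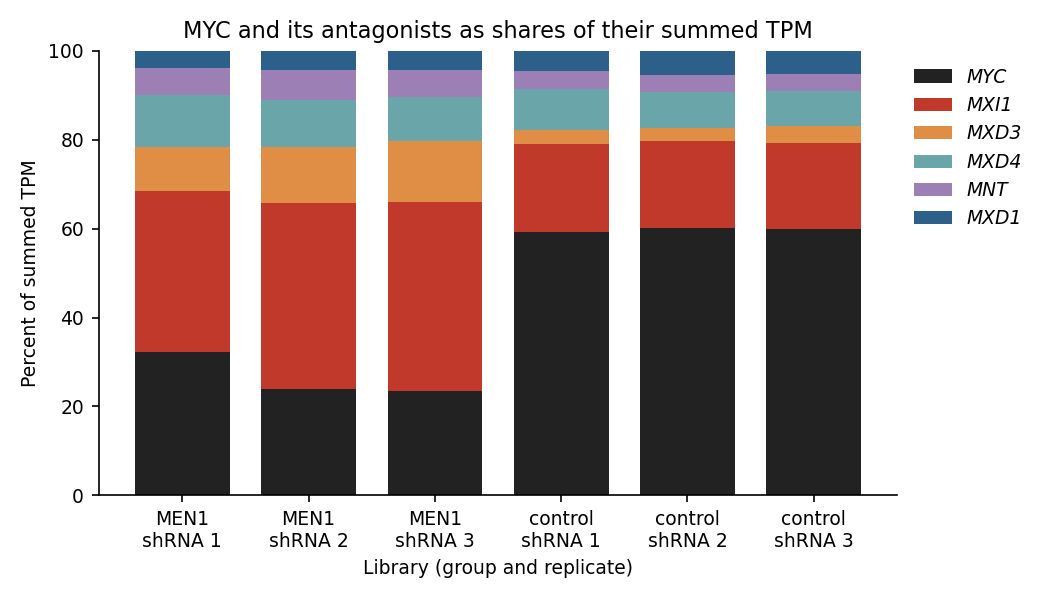
Stacked bars of MYC and the 5 antagonist genes as percent of their summed TPM in each of the 6 libraries. MYC is 59.3% to 60.1% in the controls and 23.5% to 32.3% in the MEN1 shRNA libraries, where the MXI1 and MXD3 bands widen.

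The make-up of the antagonist pool differed as well. MXI1 made up 48.4% ± 0.56 of antagonist TPM in the controls and 54.6% ± 1.03 with the MEN1 shRNA. MXD3 went from 8.31% ± 0.993 to 16.4% ± 1.80 and MXD1 from 12.5% ± 1.23 to 5.68% ± 0.255. MXD4 went from 21.1% ± 1.68 to 14.7% ± 2.36 and MNT from 9.67% ± 0.113 to 8.58% ± 0.548. The smallest part of the pool was MXD3 in the controls and MXD1 with the MEN1 shRNA. From coverage the make-up was another one: MXI1 was 8.59% ± 1.06 and 11.4% ± 1.37 of the antagonists in the controls and the MEN1 shRNA libraries, and MXD4 led with 39.1% ± 3.48 and 35.1% ± 2.72. There MXD3 went from 7.32% ± 0.902 to 19.6% ± 1.03 and MXD1 from 32.9% ± 3.34 to 18.6% ± 0.158, the same directions as in TPM. The cause of the difference between the units was not tested. These shares say nothing of protein.

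MEN1 shRNA replicate 1, the library nearest to the controls over all genes, was also the nearest of its group in 4 of the 5 members past the threshold, namely MYC, MXD3, MXI1 and MGA. Over all 7657 genes past the threshold this library was the nearest in 65.2%. Without it, the same 5 members and MNT passed, which is 6 of 9, against 52.8% of all genes tested. No member changed direction.

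The promoters of the members were searched for the E-box that MYC-MAX and MXD-MAX dimers bind. RefSeq promoter windows of 250 bases before to 50 after each start (GRCh38.p14) matched 9 of the 10 members. MYC had no window, so its promoter was not searched. The letters CACGTG, the same on both strands, were found for MXD4, MNT and MLX, which is 3 of 9 genes, against 8.77% of all 27305 genes of the promoter table and 7.26% of its 35116 windows. None of these 3 members passed the threshold, and the windows of MAX, MXD1, MXD3, MXI1, MYCN and MGA do not hold these letters. The variant CACGCG, which reads CGCGTG on the other strand, was found for 3 of 9 genes, MXD3, MXI1 and MGA, against 13.5% of all genes of the table, and in MXI1 and MGA it stood in 1 of 3 windows each. The stretches below lie outside the annotated transcripts, are read 5′ to 3′ on the gene's strand, and are shown because they hold the E-box, in capitals, or belong to the antagonist with the largest rise.
MXD4, chr4:2262295-2262359, minus strand: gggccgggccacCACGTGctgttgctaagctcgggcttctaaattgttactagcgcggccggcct
MNT, chr17:2401119-2401310, minus strand: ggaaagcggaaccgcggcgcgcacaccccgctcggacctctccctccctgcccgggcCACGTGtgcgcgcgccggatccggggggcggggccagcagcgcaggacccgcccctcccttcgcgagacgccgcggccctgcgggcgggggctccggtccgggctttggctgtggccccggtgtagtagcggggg
MLX, chr17:42566850-42567067, plus strand: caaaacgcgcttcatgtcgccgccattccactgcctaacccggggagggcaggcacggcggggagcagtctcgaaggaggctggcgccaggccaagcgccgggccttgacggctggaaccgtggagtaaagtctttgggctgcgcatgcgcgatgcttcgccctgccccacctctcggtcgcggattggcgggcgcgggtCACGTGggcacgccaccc
MXD3, chr5:177312758-177313002, minus strand, with no such match: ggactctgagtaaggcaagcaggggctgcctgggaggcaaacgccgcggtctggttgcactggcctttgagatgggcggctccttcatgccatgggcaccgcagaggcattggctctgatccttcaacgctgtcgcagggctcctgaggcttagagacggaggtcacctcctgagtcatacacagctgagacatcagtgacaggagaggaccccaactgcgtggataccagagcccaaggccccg
The E-box begins 238 bases before the RefSeq start of MXD4, 193 before that of MNT and 50 before that of MLX. A match of letters is a description and not evidence of binding.

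Genes that MYC is known to activate were lower with the MEN1 shRNA. Of 55 such genes, listed from textbook knowledge with earlier results of these data known, all were tested, 49 fell, 2 rose and 4 did not pass, against 31.5% lower and 22.1% higher among all genes tested. The median log2 fold change of the list was -0.85, against -0.07 for all genes. The groups did not overlap in 53 of the 55 genes, against 61.8% of all genes tested. NPM1, a nucleolar chaperone of ribosome assembly, had 759, 689 and 555 TPM with the MEN1 shRNA and 2812, 3298 and 3418 TPM in the controls, far apart in every library. Its mean was 21.0% of that in the controls, with an adjusted p of 2.5e-05 in limma (log2 fold change -2.26). MYBBP1A, a nucleolar regulator of ribosomal RNA synthesis, fell from 104 ± 5.50 to 41.3 ± 2.73 TPM, and PHB1, a mitochondrial inner membrane scaffold, from 280 ± 4.34 to 157 ± 3.46 TPM.

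Further well-known targets were picked after their values were seen. NCL, the nucleolar protein nucleolin, fell from 1557 ± 31.2 to 905 ± 38.0 TPM, and ODC1, the first enzyme of polyamine synthesis, from 339 ± 42.3 to 190 ± 20.5 TPM. In glucose metabolism HK2, a hexokinase, fell from 28.7 ± 4.27 to 5.44 ± 1.45 TPM and LDHA, a lactate dehydrogenase subunit, from 798 ± 119 to 329 ± 62.9 TPM. TERT, the catalytic subunit of telomerase, fell from 6.49 ± 0.399 to 0.618 ± 0.615 TPM. Of the 2 genes of the list that rose, CDK4, a kinase of the G1 phase, went from 220 ± 9.69 to 257 ± 20.1 TPM (adjusted p 0.0313 in limma), a call lost in 7 alternative settings. MCM5, a subunit of the replicative helicase, rose from 202 ± 5.63 to 254 ± 8.39 TPM (adjusted p 0.00148 in limma). The 4 genes that did not pass were DCTPP1, PA2G4, MCM4 and PRMT3, named after their values were seen, with log2 fold changes of -0.45, 0.12, 0.00 and 0.02. Of the 10 erythroid markers 7 rose, against 22.1% of all genes tested, and their part in this result was not tested either.

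Promoter windows matched 46 of the 55 genes, and 28 of the 46 (60.9%) hold CACGTG in a window, against 8.77% of all genes in the promoter table. The list holds known MYC targets, so this share is no independent result. Among the 28 genes with the letters, 25 fell, with a median log2 fold change of -0.93. Among the 18 without them, 17 fell, with a median of -0.72.

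Of 13 genes that MYC is known to repress, 9 rose (69.2%, against 22.1% of all genes tested), 1 fell (7.69%, against 31.5%) and 3 did not pass, with a median log2 fold change of 0.90 against -0.07 for all genes. CDKN1A, which encodes the CDK inhibitor p21, had 12.2, 20.3 and 17.1 TPM with the MEN1 shRNA and 2.80, 1.82 and 1.84 TPM in the controls (log2 fold change 2.46, SE 0.202, adjusted p 7.6e-05 in limma). GADD45A, a stress-induced growth arrest gene, rose from 28.1 ± 4.27 to 68.1 ± 7.33 TPM and NDRG1, a differentiation-linked gene, from 85.6 ± 10.2 to 173 ± 8.13 TPM. CEBPA, a myeloid transcription factor, fell from 2.73 ± 0.197 to 0.662 ± 0.272 TPM. CDKN1A and GADD45A also belong to the known targets of p53, and which regulator their change follows was not tested.

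**Figure D4:**
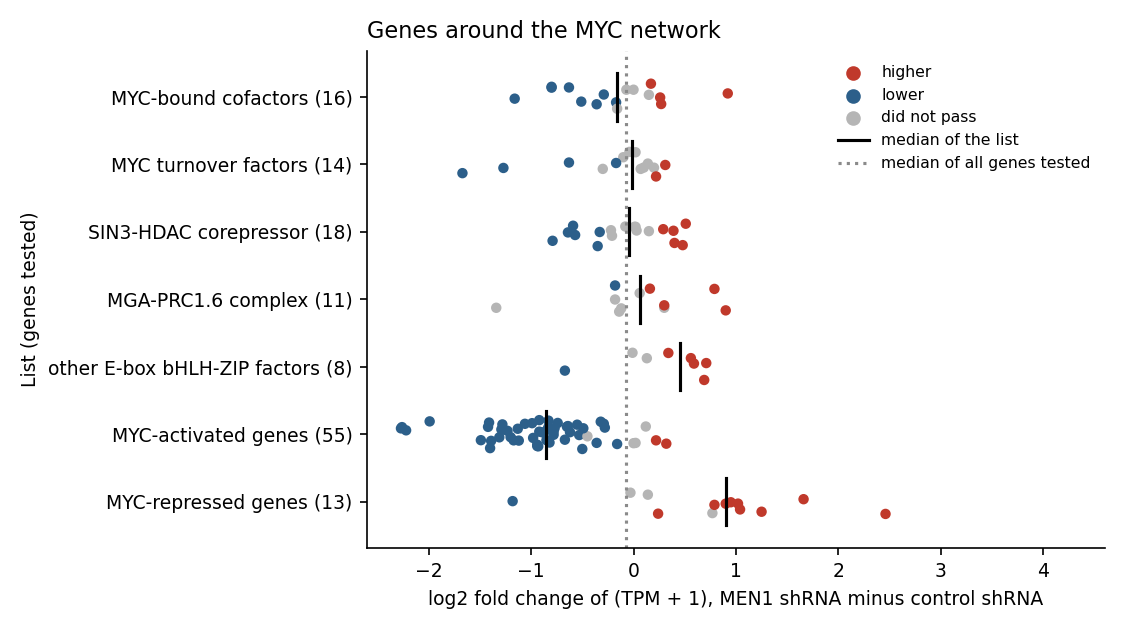
Log2 fold change of TPM + 1 for each tested gene of the 7 lists with at least 8 genes tested, coloured by the limma call, with the median of each list (black line) and of all genes tested (dotted line at -0.07). The genes MYC activates lie mostly left of 0 with a median of -0.85 and those it represses mostly right of 0 with a median of 0.90.

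Of 16 MYC-bound cofactors, 4 rose (25%, against 22.1% of all genes tested), 8 fell (50%, against 31.5%) and 4 did not pass, with a median log2 fold change of -0.16. RUVBL1 and RUVBL2, paired ATPases of the TIP60 and INO80 remodelling complexes, fell from 125 ± 0.789 to 71.4 ± 7.63 TPM and from 582 ± 28.0 to 375 ± 9.26 TPM. MYCBP2, a ubiquitin ligase that binds MYC, fell from 23.7 ± 3.23 to 10.1 ± 1.71 TPM. PAF1, a subunit of the elongation complex of that name, rose from 108 ± 3.26 to 205 ± 21.6 TPM. ZBTB17, which encodes MIZ1, the partner through which MYC represses, had a log2 fold change of 0.26 (adjusted p 0.0256 in limma) and BPTF, a nucleosome remodelling factor, 0.27 (adjusted p 0.0272). Both calls were lost in 5 alternative settings each.

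Among 14 factors that control MYC protein turnover, 2 rose, 4 fell and 8 did not pass. SKP2, a ubiquitin ligase subunit that degrades MYC and p27, had 22.3, 12.5 and 14.4 TPM with the MEN1 shRNA and 47.7, 59.2 and 51.6 TPM in the controls (log2 fold change -1.67, adjusted p 3.1e-04 in limma). USP36, a nucleolar deubiquitinase that stabilises MYC, fell from 46.7 ± 2.01 to 18.9 ± 1.66 TPM, and FBXL14, another ligase subunit, from 8.88 ± 1.36 to 5.35 ± 0.396 TPM. AURKA, a mitotic kinase that shields MYCN from degradation, rose from 117 ± 4.80 to 146 ± 4.01 TPM. STUB1, a chaperone-linked ubiquitin ligase, had a log2 fold change of 0.22 (adjusted p 0.036 in limma), a call lost in 8 alternative settings. The list's shares, 14.3% higher and 28.6% lower, were below the 22.1% and 31.5% of all genes tested.

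Genes of the SIN3-HDAC corepressor, through which the MXD proteins and MNT act, went in both directions. Of 18, 5 rose, 6 fell and 7 did not pass, with a median log2 fold change of -0.04. These 27.8% higher and 33.3% lower are near the 22.1% and 31.5% of all genes tested. SIN3B, one of the scaffold paralogs that bind MXD proteins, fell from 35.8 ± 3.21 to 23.4 ± 1.49 TPM. Lower as well were RBBP7, a histone chaperone, from 189 ± 9.22 to 110 ± 19.6 TPM, and BRMS1, a subunit of the complex, from 64.4 ± 4.02 to 41.0 ± 0.546 TPM. HDAC1, the deacetylase, rose from 132 ± 8.41 to 185 ± 16.8 TPM, ARID4B from 18 ± 1.53 to 23.9 ± 1.13 TPM and ING1, a reader of histone H3 lysine methylation, from 7.14 ± 0.597 to 10.6 ± 0.885 TPM.

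MGA's partners in its Polycomb complex gave 4 genes higher, 1 lower and 6 that did not pass, of 11. Thus 45.5% passed, against 53.6% of all genes tested. By direction 36.4% were higher and 9.09% lower, against 22.1% and 31.5% of all genes tested. TFDP2, a dimer partner of E2F factors, rose from 104 ± 10.7 to 194 ± 5.44 TPM, CBX1, a heterochromatin protein, from 33.2 ± 5.65 to 57.8 ± 2.97 TPM, and RING1, a ubiquitin ligase, from 62.8 ± 2.10 to 77.6 ± 2.45 TPM. CBX3, a second heterochromatin protein, had a log2 fold change of -0.18 (adjusted p 0.0276 in limma), and its call was lost in 9 alternative settings, with an adjusted p of 0.067 with the replicate number as a block.

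On the MLX side, MLXIP, which encodes MondoA, had 50.2 ± 0.222 TPM with the MEN1 shRNA and 45.6 ± 2.35 TPM in the controls (log2 fold change 0.14, 95% interval -0.01 to 0.28, adjusted p 0.10 in limma). The TPM values of the 2 groups did not overlap for MLXIP. It passed with FPKM, median-of-ratios scaling, quantile normalization and rescaling without globin and mitochondrial genes, so its call depends on the scaling. Gene-level coverage gave it a log2 fold change of -0.083. MLXIPL, which encodes the second MLX partner ChREBP, stayed at or below 0.862 TPM in every library. TXNIP, the best-known MondoA-MLX target and a brake on glucose uptake, had 319, 407 and 388 TPM with the MEN1 shRNA and 245, 249 and 262 TPM in the controls, without overlap (log2 fold change 0.55, SE 0.0931, adjusted p 0.00177 in limma). ARRDC4, a related arrestin gene under the same control, overlapped between the groups at 11.9 ± 0.962 and 10.9 ± 0.576 TPM (adjusted p 0.338 in limma).

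Among other factors of the same structural class that bind E-boxes without MAX, 8 of 9 genes were tested. Of these, 5 rose (62.5%, against 22.1% of all genes tested), 1 fell (12.5%, against 31.5%) and 2 did not pass, with a median log2 fold change of 0.45. SREBF2 and SREBF1, the sterol and lipid synthesis regulators, rose from 124 ± 3.11 to 202 ± 11.8 TPM and from 110 ± 3.87 to 163 ± 9.54 TPM. TFE3, a lysosome and autophagy regulator, rose from 14.7 ± 0.368 to 22.7 ± 1.24 TPM. TFAP4, a known MYC target that itself binds E-boxes, fell from 29.7 ± 6.73 to 18 ± 0.602 TPM.

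The genes with profiles most like that of MYC over the 6 libraries were BEND3, PLP2 and NPM3, out of 9915 named genes with a mean of 5 TPM or more. Likeness was the root mean square difference of log2(TPM + 1) relative to the control mean, and came to 0.039, 0.043 and 0.044. The first place of BEND3, a low gene, depends on the pseudocount. With a pseudocount of 0.1 its log2 fold change was -1.97, against -1.67 for MYC and -1.65 for both PLP2 and NPM3. PLP2, a membrane protein gene, had 88.9, 67.6 and 67.9 TPM with the MEN1 shRNA and 226, 243 and 227 TPM in the controls. NPM3, a nucleolar histone chaperone gene, had 37.4, 25.8 and 25.6 TPM against 87.5, 93.2 and 94.0 TPM, and BEND3, a DNA-binding repressor gene, 3.36, 2.07 and 2.39 against 9.68, 11 and 10.3 TPM. In all 3 genes, as in MYC, MEN1 shRNA replicate 1 was the highest of its group. They were chosen by likeness over these same libraries, so this shared order is no separate result. For MXD3, the antagonist with the largest change, the nearest profiles were those of TP53INP2 (0.078), LCOR (0.080) and ITGB7 (0.086), with log2 fold changes of 1.22, 1.21 and 1.26.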

How the data were processed

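Poly(A) RNA libraries, prepared with a strand-marking kit per the labels' protocols, gave 1 deposited gene table each. The submitters' processing notes name FastQC, Trimmomatic, STAR 2.7.1a, Picard 2.20.4, StringTie 2.0.4 and the build hg38; annotation and strand setting: not given in the sources used here. The authors deposited TPM, which sums to 1000000 per library, FPKM (fragments per kilobase of gene and 1000000 mapped fragments), and coverage, the unscaled read depth per base. Negative residues (3 values in control replicate 2) were set to 0. No counts are given, so no count model was fitted.

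Genes with 1 TPM or more in at least 3 of 6 libraries were fitted as log2(TPM + 1) with limma 3.58.1 (R 4.3.3; lmFit, eBayes with trend); tests were 2-sided, p-values were adjusted (Benjamini-Hochberg) over the 14294 genes tested, and intervals are 95%. A fold change on this scale understates that of low genes. The step was also run on simulated data in which few genes changed, unlike these data, and no conclusion is drawn from that run. All adjusted p-values come from this fit unless another setting is named. Values are mean ± SD over 3 libraries. Summaries and figures used Python 3.11.15, pandas 2.3.3, NumPy 2.4.6 and matplotlib 3.10.9.

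The members and the 10 lists (144 genes) were chosen with earlier results of these data known; PHB and FAM60A were matched as PHB1 and SINHCAF through RefSeq synonyms. Named are the members, MEN1, lists of under 4 genes, at most 3 genes per direction with the lowest adjusted p from each other list, and the 3 nearest profiles to MYC and to the antagonist with the largest change. Alternatives covered pseudocount, filters, FPKM, scaling, variance model, replicate block, left-out libraries and stricter calls.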

Additional observations from a re-analysis of the deposited data

How the results depend on the processing

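Of 84 comparisons of the main values with other settings, 4 were counted as moved and 80 were not. The 80 were not all close to the reported values. They include 7 members past the threshold with FPKM and 4 at an adjusted p threshold of 0.01, against 5. At that stricter threshold 38.7% of all genes tested passed, against 53.6%. Testing against a minimum log2 fold change of 0.5 (limma's treat) is stricter by construction. It left 2 members (MYC and MXD3), against 5, and 2126 genes in all (14.9% of those tested), against 7657. Of the 144 listed genes 139 were tested, and 46 passed in this setting, against 102. Gene-level coverage in place of TPM, chosen after the data were seen, gave a difference in antagonist share of 26.3 in place of 33.2 percentage points, and turned MLXIP to -0.083; the cause was not tested. FPKM and median-of-ratios scaling cannot move that share, by construction. Leaving out 1 library at a time gave 5 to 6 members, 6577 to 7542 genes (46% to 52.8% of those tested), 87 to 98 listed genes and 31.7 to 36.1 percentage points. No member changed direction in the 17 alternatives run for each, and 139 of 153 comparisons kept its call; MAX (5) and MNT (8) passed in some, and MXI1 failed in 1.

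No pairing of the libraries by replicate number was seen. Deviations of same-numbered libraries correlated at 0.017, -0.027 and -0.012, and 2 of 6 libraries correlated best with their own number. With 3 libraries per group, a weak shared batch could be missed. With the replicate number as a block there were 7012 genes past the threshold (49.1% of those tested), 5 of them members and 96 listed genes. Of the 53 genes named by the rule CBX3 alone lost its call (adjusted p 0.067 in limma). Without read counts, counting error was not estimated.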
